A study of Mus musculus with 6 samples.

Results

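The annexins are a family of proteins that bind acidic phospholipids, such as phosphatidylserine, when calcium is present. Each has a conserved core that contacts the membrane and a variable N-terminal tail that binds partners, among them the S100 proteins. In cartilage, annexins are known as components of matrix vesicles, the small membrane particles that chondrocytes shed into the matrix and in which mineral first forms, and also as proteins of the chondrocyte surface and cytoplasm. The mRNAs of 9 annexin genes (*Anxa1* to *Anxa8* and *Anxa11*) were compared between label-retaining chondrocytes (LRCs) and non-LRCs of the mouse growth plate. The members were chosen by name, as 9 of the 23159 genes of the count table, and all 9 passed the filter on low counts that left 13728 genes.

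The libraries came from Col2-Q mice at postnatal day 49, which were homozygous for *Col2a1-tTA* (inserted at *Peli2*), TRE-H2B-GFP at *Col1a1*, *Col2a1-creER* and a tdTomato reporter at R26R. The *Col2a1* promoter drove the tetracycline transactivator, so that chondrocytes loaded their histones with H2B-GFP until doxycycline, given from day 21 to day 49, stopped its production and division diluted the label. Tamoxifen on days 46 and 47 marked cells that then expressed *Col2a1-creER*, which likewise depends on the *Col2a1* promoter. In each of 3 independent experiments, several littermates were pooled, and CD45-negative, tdTomato-positive cells of the distal femur and proximal tibia were sorted into a GFP-high fraction of about 10000 cells (LRC) and a GFP-mid-low fraction of about 50000 cells (non-LRC). Both groups therefore shared genotype, age and treatment, and differed in retained label. RNA was measured as reads per gene in 3 LRC and 3 non-LRC libraries with total counts of 18943789 to 129559872. The LRC library of experiment 2 stood apart as the shallowest, and *Col2a1*, the main collagen gene of cartilage, took 7.0% of its counts against 10.2 to 17.4% in the other 5. Changes of the members are therefore also given without experiment 2. Summed over 14 chondrocyte markers, the levels lay between 90881 and 260177 CPM in the 6 libraries, and 7 endothelial markers summed to 1.33 to 5.45 CPM, with 3 of them (*Cdh5*, *Kdr* and *Emcn*) at 0 in all libraries and *Egfl7* detected in all. Levels in CPM are read counts scaled to a common library size with TMM normalization, and changes are log2 ratios of LRCs over non-LRCs.

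The annexin genes lay on 7 chromosomes of GRCm38. *Anxa7* (chr14:20455260-20480133), *Anxa11* (chr14:25842156-25886804) and *Anxa8* (chr14:34085981-34100571) shared chromosome 14. The others were *Anxa1* (chr19:20373428-20390944), *Anxa2* (chr9:69453620-69491795), *Anxa3* (chr5:96793339-96845966), *Anxa4* (chr6:86736840-86793584), *Anxa5* (chr3:36448923-36475894) and *Anxa6* (chr11:54979108-55033445). Exons of *Anxa4* shared 75 bases with the opposite-strand gene *Gm44036*, and exons of *Anxa11* shared 113 bases with the antisense gene *Anxa11os*. The annotation and strand setting of the counting were not stated. Reads there may have been counted for the wrong gene or left out as ambiguous, and the values of *Anxa4* and *Anxa11* are uncertain to that extent. The exons of the other 7 members shared no base with another annotated gene.

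The start regions of the 2 most abundant members, *Anxa1* and *Anxa2*, are shown because they were the members whose 300-base RefSeq window (GRCm38.p6, from 250 bases before to 50 after the start) held the letters TATAAA, the core of a TATA box. Windows were found for 7 of the 9 genes, not for *Anxa3* and *Anxa6*. The capitals mark TATAAA, which was searched on both strands and in both genes read along the gene's own strand. The first stretch is chr19:20390686-20390715 on the minus strand and the second is chr9:69453654-69453683 on the plus strand, and in GENCODE vM21 both lie in an exon of their gene.
Anxa1: cagttcatatccTATAAAatcaggagtcca
Anxa2: ggatggggcgggTATAAAagccccacccag
The motif began 32 bases before the RefSeq start in *Anxa1* and 17 bases before it in *Anxa2*. Of all 32851 mouse windows of the same length, 13.6% held TATAAA on either strand. In *Anxa2*, a GGGCGG match (a GC box) ended just before TATAAA without overlapping it. GGGCGG was found in a window of *Anxa2*, *Anxa4*, *Anxa7* and *Anxa11* and in 35.7% of all windows, and the AP-1 letters TGANTCA were found in *Anxa2* alone among the 7 and in 7.81% of all windows. These matches describe letters and do not mark a used site.

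The summed annexin mRNA of LRCs and non-LRCs differed by a mean log2 change of -0.01 (SD 0.15, 3 experiments), while single members differed. *Anxa3* mRNA fell in LRCs, where its mean was 15.2 CPM beside 45.3 CPM in non-LRCs, *Anxa1* was higher in the LRC library of all 3 experiments without passing the adjusted test, and the other 7 members differed by fitted changes of between -0.40 and 0.10. Calls were made with edgeR's quasi-likelihood test with the experiment as a block, at a Benjamini-Hochberg adjusted p below 0.05 over all genes tested. By this rule 1 of the 9 annexins was called lower in LRCs, where 0.379% of all genes tested were, and none was called higher, where 0.903% of all genes were. With DESeq2, 1 annexin was called lower and 1 higher, where 12.4% of all genes were called in either direction. With limma-voom, which called 9.91% of all genes, *Anxa3* was the 1 annexin called. At an unadjusted p below 0.05, 2 members were lower and 1 was higher, beside 9.53% and 8.89% of all genes, and without experiment 2 this total of 3 became 1. The fitted change was negative for 7 of the 9, beside 56% of all genes, and the members' median was -0.25 beside -0.10 over all genes. In sorted bulk samples, fewer cells expressing a gene and less of its mRNA per cell cannot be told apart.

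**Figure D1:**
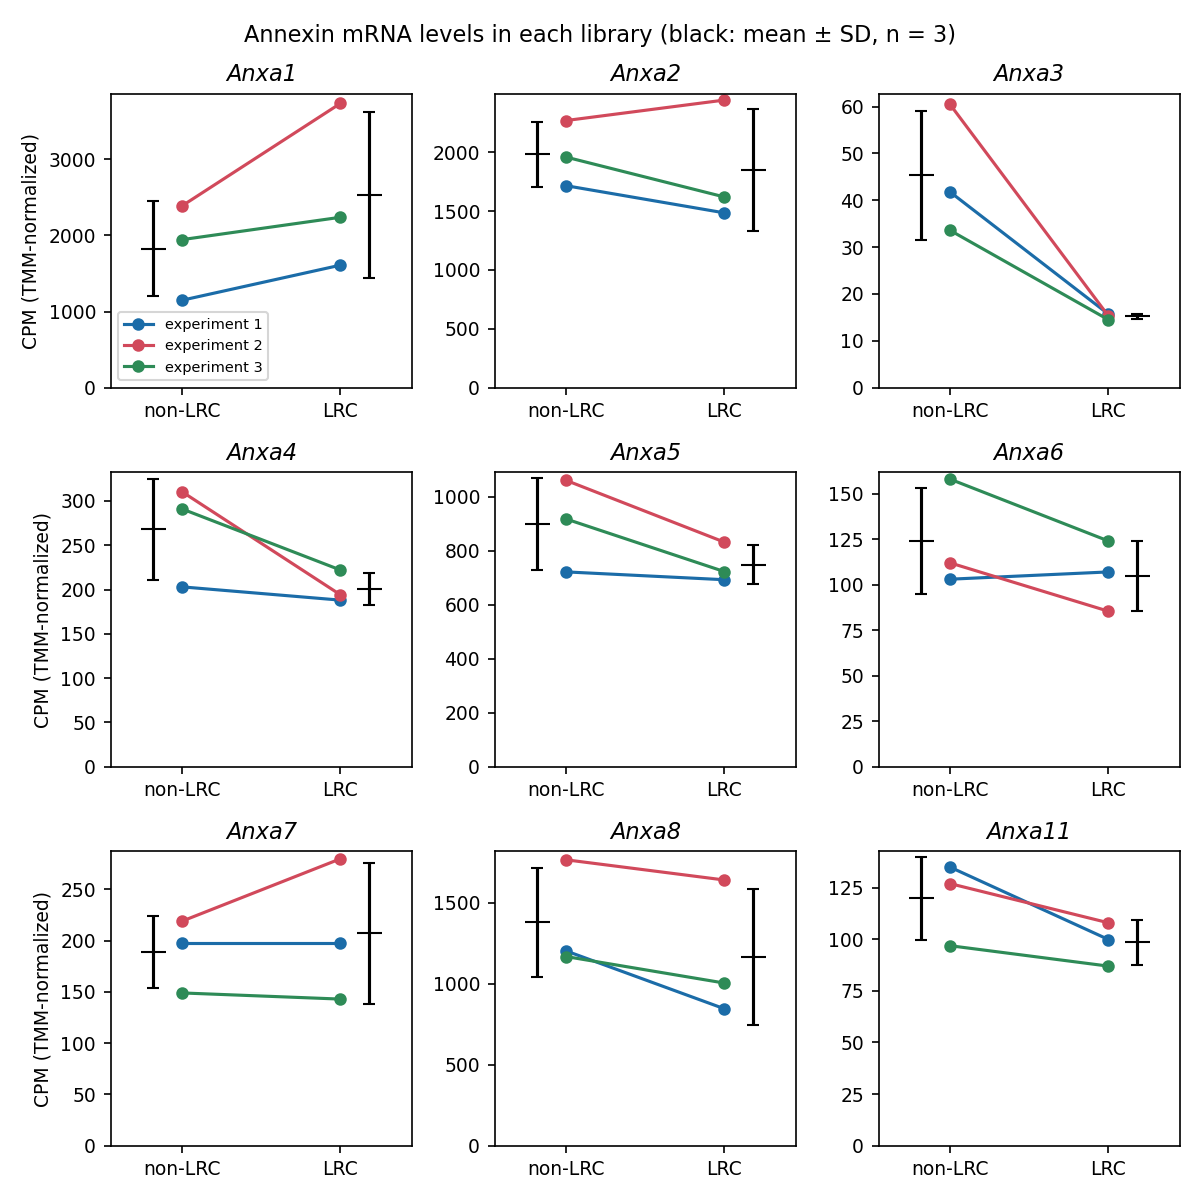
Level of each annexin mRNA in CPM (vertical axes, from 0, each with its own scale) in the non-LRC and LRC library of each experiment, joined by lines coloured by experiment, with the mean and SD of 3 libraries in black. The 3 LRC libraries meet near 15.2 CPM for *Anxa3*, all below the non-LRC libraries, while the lines of *Anxa1* all slope upward.

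*Anxa3*, a member known from the granules of neutrophils and from several epithelia, was the least abundant of the 9. In the order of experiments 1, 2 and 3, used throughout, its level was 15.7, 15.3 and 14.5 CPM in LRCs, against 41.8, 60.5 and 33.6 CPM in the matching non-LRCs. Every LRC library lay below every non-LRC library, a separation in this direction that 10.3% of all genes tested showed. The LRC values also lay closer together (15.2 ± 0.626 CPM, SD, n = 3) than the non-LRC values (45.3 ± 13.8 CPM, SD, n = 3). The counts behind these values were 1834, 320 and 622 reads in LRCs and 4317, 2309 and 1669 in non-LRCs. The change was -1.41, -1.98 and -1.21 in the 3 experiments, and the fitted change was -1.53 (SE 0.23, 95% CI -2.10 to -0.97), with an edgeR adjusted p of 0.0488. It also passed a fold change of at least 2, as did 0.335% of all genes tested in this direction. As a ratio, *Anxa3* was 2.89-fold higher in non-LRCs (95% CI 1.96 to 4.28). The call lay close to the threshold: it was lost without experiment 1 (-1.60, edgeR adjusted p 0.167), without the block (edgeR adjusted p 0.169) and in a test against a fold change of 1.2 (edgeR's glmTreat, adjusted p 0.0638). It remained without experiment 2 (-1.31, edgeR adjusted p 0.019) and without experiment 3 (-1.67, edgeR adjusted p 0.0299), and in DESeq2 (adjusted p 4.87e-07) and limma-voom (adjusted p 0.00224). Because neutrophils express *Anxa3*, their markers were read beside it. Over 8 listed neutrophil markers the sum was 0.765 to 11.1 CPM in LRCs and 0.387 to 2.98 CPM in non-LRCs. The 4 tested all had positive changes, beside 44% of all genes, and none was called. *S100a9* had reads in all 6 libraries (0.184 to 2.72 CPM), and *Elane* and *Mpo* were at 0 in 5 of the 6. Markers of hypertrophic chondrocytes, the cells that shed matrix vesicles before mineralization, were read as well. Of these 8, 7 had a negative change (median -0.75), beside 56% of all genes, although *Spp1* among them was at -0.00. *Runx2* had a positive change (0.50), and 4 of the 8 were lower in all 3 experiments, beside 26% of all genes. The sum of the 8 was 926 to 2090 CPM in LRCs, against 1117 to 3009 CPM in non-LRCs, and *Spp1* made up much of it (means of 1079 and 1066 CPM). *Col10a1* (-2.95, edgeR adjusted p 0.101) and *Ihh* (-5.35, edgeR adjusted p 0.15, at most 8.45 CPM) were among the 4 lower in all 3 experiments. The 1 called was *Panx3*, named here after its values were seen (-4.01, edgeR adjusted p 0.0176), beside 0.379% of all genes. Of the 14 chondrocyte markers, 11 also had a negative change (median -0.45). The part of these cell types in the *Anxa3* values was not tested.

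The genes whose log2 CPM followed that of *Anxa3* most closely over the 6 libraries, among 4586 genes at least as abundant, were *2810008M24Rik*, *Samhd1*, which encodes a dNTP hydrolase, and *Rras2*, which encodes a Ras-related GTPase. Pearson's r with *Anxa3* was 0.999, 0.985 and 0.982, over 6 libraries that share 2 groups and 3 experiments. Having been chosen for likeness, they share its pattern by construction, and their values are a description. *Samhd1* had 43.5, 39.4 and 44.1 CPM in LRCs and 91.4, 137 and 96.4 CPM in non-LRCs. The fitted change was -1.33 for *Samhd1* (edgeR adjusted p 0.0484), -0.96 for *2810008M24Rik* (edgeR adjusted p 0.0814) and -1.08 for *Rras2* (edgeR adjusted p 0.0808).

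*Anxa1*, a glucocorticoid-regulated member whose secreted protein acts through formyl peptide receptors, was the member with the largest positive change. Its level was 1609, 3734 and 2238 CPM in LRCs, against 1148, 2387 and 1944 CPM in non-LRCs. The LRC value was the higher one in each experiment, but the groups overlapped, and experiments differed more than groups did. The mean was 2527 ± 1092 CPM in LRCs, against 1826 ± 628 CPM in non-LRCs (SD, n = 3 each). Within experiments the change was 0.49, 0.65 and 0.20, and the fitted change was 0.45 (SE 0.16, 95% CI 0.06 to 0.83), a 1.36-fold ratio (95% CI 1.04 to 1.78). The unadjusted edgeR p was 0.0296 and the adjusted p 0.215. With DESeq2 the adjusted p was 0.0455 at nearly the same change (0.46), and with limma-voom it was 0.0586. Without experiment 2 the change was 0.35 (edgeR adjusted p 0.206), and over the 12 alternatives tried it lay between 0.35 and 0.59. Its experiment means spanned 1.14 on the log2 scale, more than those of any other member, with experiment 2 the highest. Marker lists were read beside it, and their sums are given below. Among the LRC libraries, both sums were lowest in experiment 2. The libraries came from a sort for tdTomato-positive, CD45-negative cells of dislodged epiphyses, which held the articular surface as well as growth plate. The paper detected *Prg4*, a gene of the first list, in both, far more faintly in the resting zone. The sum of 12 superficial articular and synovial markers was 1788 to 4024 CPM in LRCs and 295 to 439.6 CPM in non-LRCs. Of the 12, 9 had a positive change, beside 44% of all genes, and 3 (*Tppp3*, *Cd55* and *Vcam1*) a negative one. Called higher in LRCs were 6 of the 12, beside 0.903% of all genes. The sum of 10 fibroblast and perichondrial markers was 2651 to 4786 CPM in LRCs and 1743 to 2803 CPM in non-LRCs. Of 9 tested, 8 had a positive change, beside 44% of all genes, and 1 was called higher, beside 0.903%. *Postn* had 0 reads in every LRC library. Whether these marker levels have a part in the *Anxa1* values was not tested.

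*Anxa2* forms a complex with S100a10 and binds plasminogen and its activator at the cell surface. It had 1484, 2442 and 1619 CPM in LRCs, against 1715, 2268 and 1958 CPM in non-LRCs. The groups overlapped fully, and the direction differed between experiments, with changes of -0.21, 0.11 and -0.27. The fitted change was -0.13 (SE 0.15, 95% CI -0.50 to 0.25, edgeR adjusted p 0.712), an interval that allows up to 1.41-fold more in non-LRCs and 1.19-fold more in LRCs. Without experiment 2 it was -0.24 (edgeR adjusted p 0.335).

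*Anxa5* and *Anxa6* are the members best known from matrix vesicles, where Anxa5 binds phosphatidylserine and collagen, and Anxa6 carries an enlarged core of repeats. *Anxa5* had 692, 831 and 722 CPM in LRCs, against 721, 1060 and 917 CPM in non-LRCs. It was lower in the LRC library of all 3 experiments, by -0.06, -0.35 and -0.34, yet the groups overlapped, and the fitted change of -0.25 (SE 0.14, 95% CI -0.60 to 0.10) had an edgeR adjusted p of 0.415. *Anxa6* had 107, 85.4 and 124 CPM in LRCs, against 103, 112 and 158 CPM in non-LRCs. Its direction differed between experiments, with changes of 0.05, -0.40 and -0.35, and the fitted change was -0.23 (SE 0.16, 95% CI -0.62 to 0.15, edgeR adjusted p 0.49). The lower ends of their intervals correspond to 1.52-fold and 1.53-fold more mRNA in non-LRCs and the upper ends to 1.07-fold and 1.11-fold more in LRCs. Without experiment 2 the changes were -0.20 for *Anxa5* and -0.15 for *Anxa6*.

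*Anxa4* and *Anxa8* were also lower in the LRC library of each experiment. *Anxa4*, which aggregates membranes and is best known from epithelia, had 188, 194 and 222 CPM in LRCs and 203, 310.4 and 291 CPM in non-LRCs. Its groups overlapped only where the LRC library of experiment 3 exceeded the non-LRC library of experiment 1. The fitted change was -0.40 (SE 0.16, 95% CI -0.79 to -0.00), with an unadjusted edgeR p of 0.0488 and an adjusted p of 0.268. Its widest difference was in experiment 2 (-0.68), without which the change was -0.26 (edgeR adjusted p 0.373). *Anxa8*, first described as an anticoagulant protein, had 846, 1642 and 1005 CPM in LRCs, against 1204, 1767 and 1169 CPM in non-LRCs. Both libraries of experiment 2 were the highest of their group, and the groups overlapped. Its fitted change was -0.28 (SE 0.15, 95% CI -0.65 to 0.09, edgeR adjusted p 0.396), or -0.36 without experiment 2 (edgeR adjusted p 0.199).

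*Anxa7* and *Anxa11* carry the long N-terminal tails of the family. *Anxa7*, known as synexin for its part in membrane fusion, had 198, 279.9 and 143 CPM in LRCs, against 198, 219 and 149 CPM in non-LRCs. The paired values were nearly equal in experiments 1 and 3, so the fitted change of 0.10 (SE 0.15, 95% CI -0.27 to 0.47, edgeR adjusted p 0.764) became -0.03 without experiment 2 (edgeR adjusted p 0.937). *Anxa11*, which binds S100a6 and the calcium sensor Pdcd6 and tethers RNA granules to lysosomes, had 99.9, 108 and 87 CPM in LRCs and 135, 127 and 96.9 CPM in non-LRCs. It was lower in each LRC library, the groups overlapped, and the fitted change was -0.27 (SE 0.14, 95% CI -0.62 to 0.07, edgeR adjusted p 0.37), or -0.30 without experiment 2 (edgeR adjusted p 0.31). Counting the members together, 5 were lower in LRCs in all 3 experiments (*Anxa3*, *Anxa4*, *Anxa5*, *Anxa8* and *Anxa11*) and 1 was higher in all 3 (*Anxa1*), beside 26% and 20.4% of all genes tested.

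**Figure D2:**
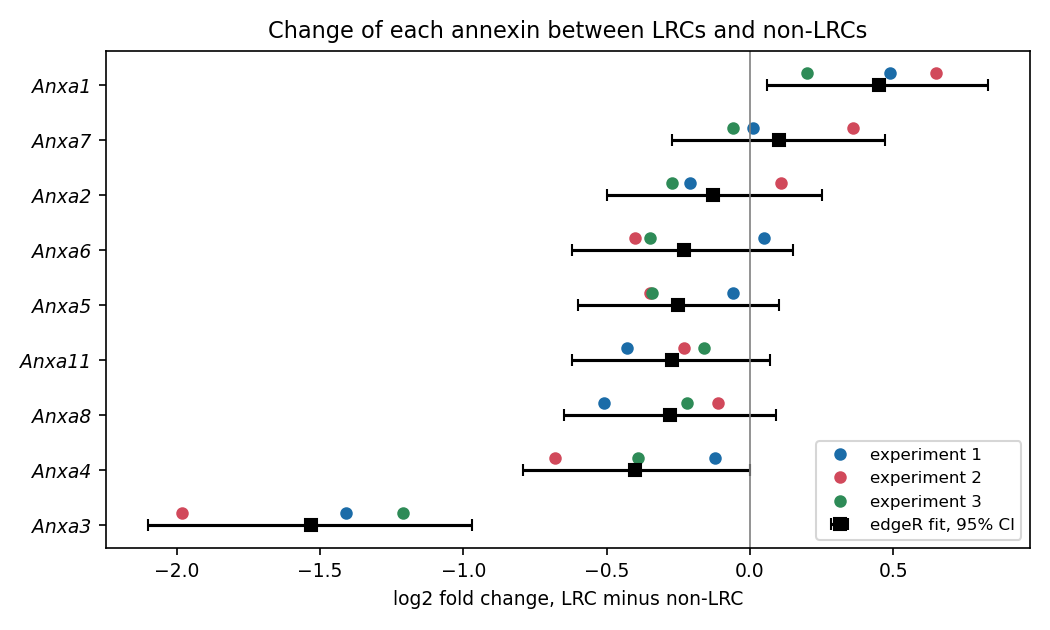
Log2 fold change of each annexin, LRC minus non-LRC (horizontal axis), with the edgeR fit and its 95% CI as black squares and bars and the 3 experiments as coloured points. The interval of *Anxa3* lies well below 0 and that of *Anxa1* above it, that of *Anxa4* ends at 0, and those of the other 6 cross 0.

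The order of the members was compared on a scale of CPM per kilobase of annotated exon, since longer mRNAs yield more reads. In LRCs, *Anxa1* (1335 ± 577, SD, n = 3) and *Anxa2* (1277 ± 359) led, and their order changed between libraries. In non-LRCs, *Anxa2* (1368 ± 192) led in all 3 libraries, and *Anxa1* (965 ± 332) and *Anxa8* (734 ± 178) changed places below it. *Anxa8* in LRCs (619 ± 224) and *Anxa5* in both groups (432 ± 42.3 in LRCs, 519.6 ± 98.3 in non-LRCs) kept their places in all libraries. *Anxa4*, *Anxa7*, *Anxa6* and *Anxa11* followed at means of 36.1 to 95.4 in LRCs and 44 to 127 in non-LRCs, and neighbours among them changed places between libraries, apart from *Anxa4* in non-LRCs. *Anxa3* was the lowest in all 6 libraries, at 5.76 ± 0.238 in LRCs and 17.2 ± 5.24 in non-LRCs.

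The summed level of the 9 mRNAs was 5239, 9332 and 6173 CPM in the LRC libraries and 5469, 8311 and 6716 CPM in the non-LRC libraries. The groups overlapped, and the change within experiments was -0.06, 0.17 and -0.12 (mean -0.01, SD 0.15). Annexin reads made up 0.472 to 1.03% of all counts in LRCs and 0.512 to 0.849% in non-LRCs, with the most in experiment 2 in both groups. Without *Anxa1*, the sum was 3630, 5598 and 3936 CPM in LRCs, against 4321, 5924 and 4772 CPM in non-LRCs. The LRC library was then the lower one in each experiment (-0.25, -0.08 and -0.28). *Anxa1* was the member higher in LRCs in every experiment, so leaving it out lowers these changes by construction.

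Within the family, the share of *Anxa1* separated the groups. Per exon length, *Anxa1* made up 28.7, 37.4 and 33.8% of annexin mRNA in LRCs and 19.5, 26.7 and 26.8% in non-LRCs. All LRC shares lay above all non-LRC shares. *Anxa8* made up 15.2, 16.6 and 15.3% in LRCs and 20.6, 19.9 and 16.2% in non-LRCs, and was the lower share in LRCs in experiments 1 and 2 and, by less, in experiment 3. *Anxa2* held 34.6, 32 and 32% in LRCs and 38, 33.2 and 35.3% in non-LRCs, while *Anxa3* held 0.11 to 0.201% in LRCs and 0.333 to 0.51% in non-LRCs. The ratios of *Anxa1* reads to those of other members do not depend on normalization, and were chosen after the levels were seen. *Anxa1* over *Anxa2* was 1.08, 1.53 and 1.38 in LRCs and 0.669, 1.05 and 0.993 in non-LRCs. *Anxa1* over *Anxa8* was 1.9, 2.27 and 2.23 in LRCs and 0.953, 1.35 and 1.66 in non-LRCs. Neither ratio overlapped between groups, and both were higher in LRCs in every experiment. Both ratios have *Anxa1* as numerator. No test was run on shares or ratios, and how often those of other genes separate in this way was not examined.

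**Figure D3:**
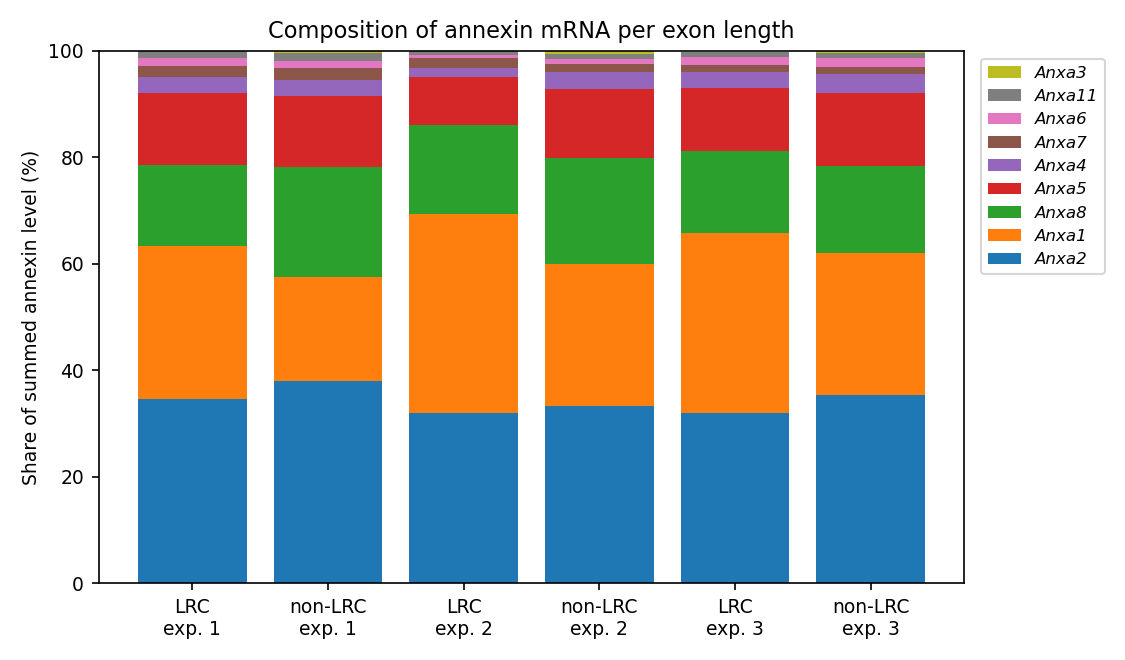
Share of each annexin in the summed annexin level per exon length (vertical axis, percent, stacked to 100) in each library. The *Anxa1* band is wider in the LRC library than in the non-LRC library of each experiment, 28.7 to 37.4% against 19.5 to 26.8%.

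Of the remaining family members, *Anxa9* alone could be tested, at 0.428, 5.93 and 0.489 CPM in LRCs and 0.678, 2.62 and 0.503 CPM in non-LRCs. Experiment 2 was highest in both groups, and the fitted change of 0.16 (SE 0.81, edgeR adjusted p 0.935) became -0.36 without it. *Anxa10* had 0 reads in all 6 libraries, where 3 reads correspond to 0.0257 to 0.143 CPM, and *Anxa13* had 0 to 39 reads and was below the filter.

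Genes for annexin partners and receptors were read as a list of 24 symbols, of which 22 were in the table and 17 could be tested. In this list 12 of 17 had a negative change, beside 56% of all genes, and 5 a positive one (median -0.21, beside -0.10 over all genes). With edgeR 1 was called higher in LRCs and 0 lower, beside 0.903% and 0.379% of all genes. At an unadjusted p below 0.05, 3 were lower and 3 were higher, beside 9.53% and 8.89% of all genes. DESeq2 called 1 lower and 2 higher, where it called 12.4% of all genes in either direction. The gene called was *Plat*, tissue plasminogen activator, which the Anxa2 and S100a10 complex binds. *Plat* had 56.5, 36.8 and 42.2 CPM in LRCs and 7.15, 10.2 and 5.41 CPM in non-LRCs. The groups did not overlap, as in 8.41% of all genes tested in this direction. *Plat* rose in LRCs by a fitted 2.61 (SE 0.31, edgeR adjusted p 0.0311). The call was lost without experiment 1 (2.41, edgeR adjusted p 0.0904) and without the block (2.58, edgeR adjusted p 0.0616). The superficial articular and synovial marker genes given beside *Anxa1*, measured after the same sort, had a higher sum in LRCs. Their part in the *Plat* values was not tested. *Lrp1*, an endocytic receptor, had 477, 281 and 223 CPM in LRCs, against 368, 211 and 114 CPM in non-LRCs, with a fitted change of 0.59 (SE 0.17, edgeR adjusted p 0.155).

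Of 7 S100 genes tested, all part of this list, 6 had a negative fitted change, beside 56% of all genes, and none was called by edgeR. *S100a4* had a positive change (0.24, edgeR adjusted p 0.746). *S100a11*, the usual partner of Anxa1, had 201, 546 and 221 CPM in LRCs, against 387, 769 and 279 CPM in non-LRCs. It was lower in the LRC library of each experiment, and the fitted change was -0.59 (SE 0.17), with an edgeR adjusted p of 0.148, a DESeq2 adjusted p of 0.0183 and a limma-voom adjusted p of 0.0297. The ratio of *Anxa1* to *S100a11* reads was 8.02, 6.84 and 10.1 in LRCs and 2.97, 3.1 and 6.96 in non-LRCs, higher in LRCs in each experiment, with a slight overlap between groups. *S100a10*, the partner of Anxa2, had 351, 1100 and 359 CPM in LRCs, against 747, 1155 and 418 CPM in non-LRCs (-0.46, SE 0.23, edgeR adjusted p 0.355). *S100a6*, a partner of Anxa11, had 118, 465 and 119 CPM in LRCs, against 253, 475 and 92 CPM in non-LRCs (-0.25, SE 0.29, edgeR adjusted p 0.7). In both genes experiment 2 stood above the others, and most of the difference came from experiment 1: without it, *S100a10* changed by -0.15 and *S100a6* by 0.17. The formyl peptide receptor genes *Fpr1*, *Fpr2* and *Fpr3*, through which secreted Anxa1 acts, had 0 reads in all 6 libraries, and were named after their values were seen.

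Matrix vesicle and mineralization genes, the setting in which chondrocyte annexins are best known, were read as a list of 23 genes, of which 21 could be tested. The change was negative for 15, beside 56% of all genes, and positive for 6 (median -0.46, beside -0.10). With edgeR 1 was called lower and 2 higher in LRCs, beside 0.379% and 0.903% of all genes. DESeq2 called 7 of the 21 lower and 3 higher, where it called 12.4% of all genes in either direction. At an unadjusted p below 0.05, 9 were lower and 3 higher, beside 9.53% and 8.89% of all genes. *Smpd3*, the neutral sphingomyelinase needed for normal skeletal mineralization, had 218, 83.6 and 499.7 CPM in LRCs, against 689, 393 and 1567 CPM in non-LRCs. It was lower in the LRC library of every experiment, although the groups overlapped across experiments, and it fell by 1.85 (SE 0.18, edgeR adjusted p 0.0189). *Ank*, which exports the mineralization inhibitor pyrophosphate or its precursor, had 901, 1241 and 582 CPM in LRCs, against 321, 525 and 159 CPM in non-LRCs. *Slc20a1*, a sodium-phosphate cotransporter, had 1222, 1252 and 909.6 CPM in LRCs, against 541, 569 and 442 CPM in non-LRCs. Neither gene overlapped between groups, a separation in this direction that 8.41% of all genes tested showed. *Ank* rose by 1.53 (SE 0.17, edgeR adjusted p 0.0275) and *Slc20a1* by 1.12 (SE 0.14, edgeR adjusted p 0.0331) in LRCs, and without experiment 1 both calls were lost (edgeR adjusted p 0.0704 and 0.124). Without the block no gene of the list was called, with edgeR adjusted p of 0.491 for *Smpd3*, 0.379 for *Ank* and 0.206 for *Slc20a1*. *Alpl*, tissue-nonspecific alkaline phosphatase, was named after its values were seen. It had 219, 119 and 251 CPM in LRCs, against 315, 282 and 515 CPM in non-LRCs. Its groups did not overlap, as in 10.3% of all genes tested in this direction. Its change of -0.93 (SE 0.18) had an edgeR adjusted p of 0.0748.

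Annexins also gather where a plasma membrane is torn or exposes phosphatidylserine, and genes of membrane repair and phospholipid exposure were read as a list of 26, of which 21 could be tested. The change was negative for 10 and positive for 11, beside 56% and 44% of all genes (median 0.14, beside -0.10 over all genes). None was called by edgeR. At an unadjusted p below 0.05, 3 were lower and 4 higher, beside 9.53% and 8.89% of all genes. By DESeq2 1 was called lower and 3 higher, where 12.4% of all genes were called in either direction. *Atp11a*, a flippase that returns phosphatidylserine to the inner leaflet, had 148, 28.9 and 103 CPM in LRCs and 59.6, 16.7 and 48.2 CPM in non-LRCs, a change of 1.07 (SE 0.17, edgeR adjusted p 0.0538). It was higher in the LRC library of each experiment, with the lowest values in experiment 2. *Plscr1*, of the scramblase family, had 10.7, 31.1 and 33.2 CPM in LRCs and 23, 46.1 and 78.6 CPM in non-LRCs (-0.98, SE 0.21, edgeR adjusted p 0.0882). *Cast*, the calpain inhibitor calpastatin, had 306, 235 and 253 CPM in LRCs, against 205, 148 and 178 CPM in non-LRCs (0.58, SE 0.13, edgeR adjusted p 0.0969). All LRC values of *Cast* lay above all non-LRC values, a separation in this direction that 8.41% of all genes tested showed. Without experiment 2, *Atp11a* (edgeR adjusted p 0.0151) and *Plscr1* (-1.18, edgeR adjusted p 0.0198) passed the threshold.

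**Figure D4:**
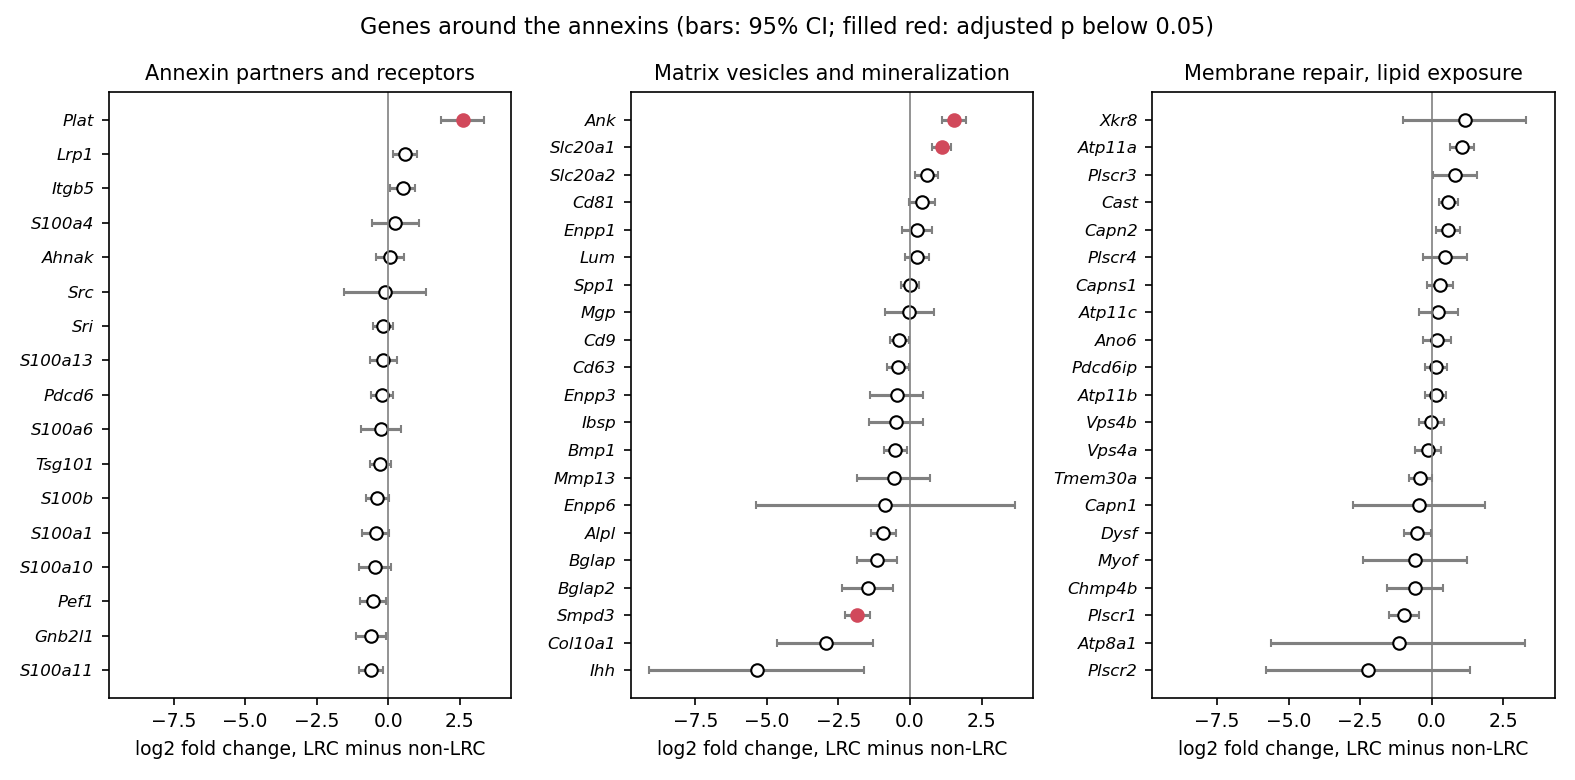
Log2 fold change, LRC minus non-LRC (horizontal axes), of the tested genes of the 3 lists, as circles with 95% CI bars, filled red where the edgeR adjusted p was below 0.05. *Plat*, *Ank* and *Slc20a1* lie to the right of 0 and *Smpd3* to the left, and no gene of membrane repair and lipid exposure is filled.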

How the data were processed

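RNA of 3 LRC and 3 non-LRC libraries was amplified (SMART-Seq v4, Nextera XT) and sequenced as 50-cycle single-end reads. The authors aligned reads with TopHat2 2.0.13 and Bowtie2 2.2.1 to mm10 and deposited counts of non-ambiguously mapped reads per gene from HTSeq. The annotation and strand setting are not given in the sources used here. The labels and the study's methods name different HiSeq models and describe the non-LRC gate differently. Deposited size-factor-normalized and rlog tables were not used.

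Counts were fitted in R 4.3.3 with edgeR 4.0.16 (TMM, filterByExpr with a minimum count of 10 and total of 15, quasi-likelihood test, Benjamini-Hochberg adjustment over 13728 genes) with the experiment as a block, after the study's paired model. Deviations from group means correlated between same-numbered libraries with r of 0.197, 0.288 and 0.336 in experiments 1, 2 and 3, and the pairing comes from the labels' numbers. Log2 CPM used a prior count of 2. Intervals are 95% and cover the spread of the change within experiments, as the block removes differences in level between experiments. The limit of 3 reads covers counting error only. Exon lengths are unions of GENCODE vM21 exons, and start windows are RefSeq's. Named genes were the 9 members, called genes and the 3 of smallest unadjusted p in each list, *S100a10*, *S100a11* and *S100a6*, and the 3 genes most like the member of smallest p. The other 10 lists were cell type markers. Members and lists were chosen with earlier results of these data known. Alternatives were no block, DESeq2 1.42.0, limma-voom (limma 3.58.1), other scalings, filters and prior counts, glmTreat, and leaving out each experiment. Osteoblast markers summed to 109 to 195 CPM in LRCs and 104 to 145 CPM in non-LRCs, leukocyte markers to 11.5 to 27 CPM and 8.85 to 13.4 CPM, muscle markers to 11.3 to 25.2 CPM and 23.7 to 42.3 CPM, endothelial markers to 1.33 to 5.45 CPM and 2.17 to 3.18 CPM, and erythroid markers to 0.12 to 0.717 CPM and 0.236 to 1.39 CPM.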

Additional observations from a re-analysis of the deposited data

How the results depend on the processing

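Over 12 alternatives for each of the 9 annexins, 103 of 108 results kept their direction and their side of the threshold, 3 lost a call, 1 gained one and 1 changed sign. The 3 losses were all *Anxa3*, the gain was *Anxa1* in DESeq2, and the change of sign was *Anxa7*, from -0.03 to 0.20 when an experiment was left out. *Anxa9* (-0.36 to 0.58) and *S100a6* (-0.55 to 0.17) also changed sign when an experiment was left out. The summed annexin level changed by -0.01 with and without TMM.

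The number of annexins called was 1, but 0 without the replicate block, 0 with glmTreat, 2 with DESeq2 and 0 to 1 when an experiment was left out. At an unadjusted p it was 3, but 1 without the block, 1 with glmTreat and 1 to 2 when an experiment was left out. Partners and receptors called went from 1 to 0 without the block, 3 with DESeq2, 3 with limma-voom and 0 to 2 when an experiment was left out. Matrix vesicle genes called went from 3 to 0 without the block, 11 with DESeq2 (fitted without the filter on low counts), 7 with limma-voom, 5 with at least 10 counts in every library and 1 to 4 when an experiment was left out. Membrane repair genes called went from 0 to 4 with DESeq2, 4 with limma-voom, 1 with DESeq2 size factors, 1 with the library total without *Col2a1*, 1 with no filter, 3 with at least 10 counts in every library and 0 to 2 when an experiment was left out. Over all genes, 176 were called with the block and 1 without it, 1695 with DESeq2, 1361 with limma-voom, 751 with at least 10 counts in every library, 91 with glmTreat, and 35, 782 and 223 without experiments 1, 2 and 3. The causes of these shifts were not tested.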
